A study of Laguncularia racemosa with 22 samples.

Results

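In the leaf of the white mangrove *Laguncularia racemosa*, a tree of tropical tidal shores, the 100 genes with the most reads at 0 h were followed through 4 sampling times. They were chosen by the highest mean CPM (a gene's count divided by the total count of its library, times 1e6) over the 6 libraries taken at 0 h, out of 54696 genes in the count table, and so make up 0.183% of it. All 100 were among the 21694 genes with enough counts to be tested, and all 100 would have passed the same filter without the 0 h libraries. Because levels at 0 h chose these genes, their changes from 0 h are given as a description with no test, and tests are given between later times, between the letters at later times, and over genes chosen in the other letter.

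Leaves came from wild-type seedlings aged 8 weeks, raised at 30/28 °C (day/night) with 16 h of light and 8 h of dark. P seedlings were held at 0 °C for 0, 3 or 12 h, or for 12 h followed by 24 h of recovery at 30/28 °C, which is labelled 36 h. Q seedlings carry the word control at 0, 3, 12 and 36 h. The stress temperature of 0 °C is listed for Q as it is for P, with no hours of cold or recovery listed for Q. Seeds had been collected at 2 places, and the letters are not tied to either in the labels, nor is the clock time of sampling given. There were 3 libraries in each group except P at 3 h (replicates 2 and 3) and P at 36 h (replicates 1 and 2), which had 2, so that 22 libraries were used, with total counts of 13743563 to 18462363. The genes carry assembler IDs that the files pair with no gene name, so no role is given to any of them, no sequence is shown, and the tissue could not be checked against leaf markers. Besides 4 IDs, genes are called by their rank at 0 h, with rank 1 the highest.

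In leaves generally, a small number of nuclear genes for photosynthesis yield a large part of the messenger RNA, among them those for the small subunit of Rubisco, the enzyme that fixes carbon dioxide, and for the chlorophyll-binding proteins of the light-harvesting antennae. Many such genes follow a daily rhythm set by light and the circadian clock, and chilling is known to alter their messenger levels. Which of the 100 genes are of this kind is not known here. CPM counts reads, and longer transcripts collect more reads, so a rank is a share of the reads and not of the molecules. In whole leaf, fewer cells of a type and less RNA per cell cannot be told apart, and CPM is a share of a library, so a gene can lose share while others gain.

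The level among the 100 genes spanned more than an order of magnitude at 0 h. The gene of rank 1 averaged 29264 CPM, that of rank 2 averaged 12922 CPM, that of rank 10 averaged 4855 CPM and that of rank 50 averaged 1554 CPM, whereas the median over all genes tested was 9.09 CPM. The gene of rank 100 averaged 910.4 CPM and the gene of rank 101, just outside, averaged 897.7 CPM, so the edge of the group is not a break in the levels. In all 6 of the 0 h libraries, 74 of the 100 genes were within that library's own top 100. At 0 h the log2 ratio of P to Q ran from -0.87 to 1.21 with a median of 0.02, and 94 genes lay within 0.5 of 0.

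Together the 100 genes held 23.1 to 26.9% of all counts in every library up to 12 h, and less in the P libraries at 36 h. In P, they held 26.9, 26.6 and 23.4% of the library at 0 h, 24.9 and 26.5% at 3 h, 24.5, 25.6 and 23.6% at 12 h, and 18.4 and 15.4% at 36 h. In Q, they held 25.04, 24.5 and 24.4% at 0 h, 26.7, 25.1 and 26.9% at 3 h, 23.8, 23.1 and 23.9% at 12 h, and 22.4, 21.98 and 22.6% at 36 h. Both P libraries at 36 h lay below every other library of either letter, and replicate 2 lay lower than replicate 1. The mean share at 36 h was 16.9% ± 2.11 in P (SD, n = 2) and 22.3% ± 0.307 in Q (SD, n = 3). Counting error is far smaller than these differences, with a Wilson 95% interval of at most 0.023 percentage points on either side of a library's share.

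**Figure D1:**
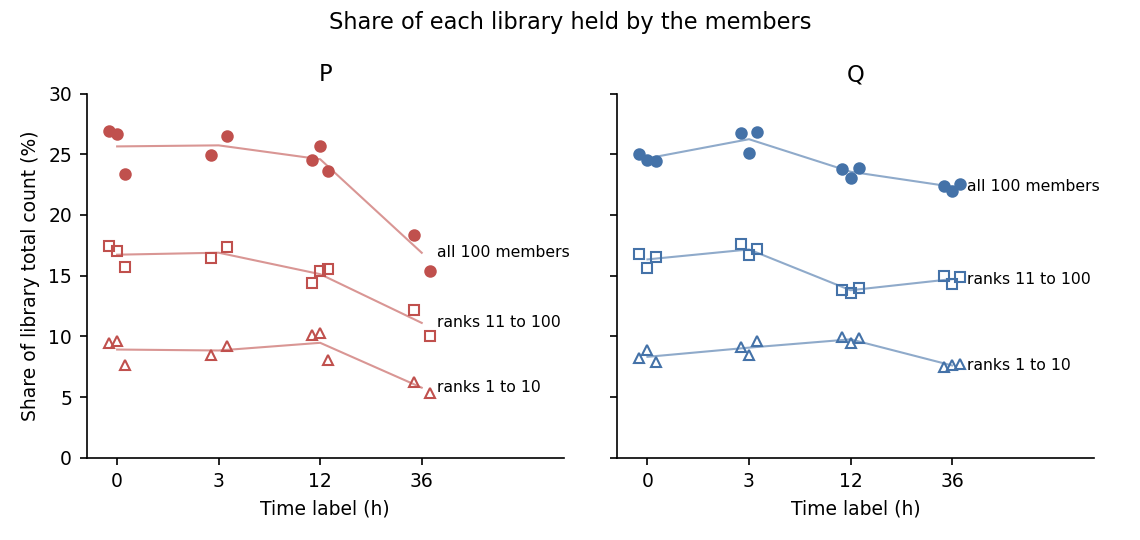
Share of each library's counts (percent, y axis) held by the 100 genes with the highest mean CPM at 0 h, by time (0, 3, 12 and 36 h) in P and Q, with 1 symbol per library and lines through the group means, for all 100 genes (members), ranks 11 to 100 and ranks 1 to 10. The P libraries at 36 h, at 18.4 and 15.4% for all 100, sit below all others.

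The highest genes and the remainder did not follow the same course. Ranks 1 to 10 held a mean of 8.92, 8.84, 9.47 and 5.78% of the counts at 0, 3, 12 and 36 h in P, and 8.32, 9.07, 9.76 and 7.61% in Q. Ranks 11 to 100 held 16.7, 16.9, 15.1 and 11.1% in P and 16.3, 17.2, 13.8 and 14.7% in Q. At 12 h ranks 11 to 100 held less than at 3 h in both letters with no overlap between libraries, while for ranks 1 to 10 the libraries of these times overlapped in both. Fewer genes carried the bulk of these counts at 12 h: 50% of the counts of the 100 genes lay in 17 to 20 genes in the libraries at 0 h, in 9 or 10 genes at 12 h and in 14 to 16 genes at 36 h. The next 100 genes by the same ranking held 6.57, 6.66, 6.83 and 5.65% in P and 6.36, 6.71, 6.96 and 7.01% in Q.

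Behind these sums, other genes moved into the most abundant class. Of the 100 genes, 95, 86, 61 and 57 were among the 100 highest by group mean at 0, 3, 12 and 36 h in P, and 97, 81, 58 and 63 in Q. The genes that took their places held 5.69% of the counts at 12 h in P and 6.08% in Q, and 7.94% at 36 h in P and 5.47% in Q. The gene of rank 1 stayed the highest in each group other than P at 36 h, where it was the second. The gene above it there, which is outside the 100 and was singled out after its values were seen, had 14138 and 18522 CPM in P at 36 h, against 113 to 1431 CPM in Q at 36 h, and averaged 78.2 CPM over the 0 h libraries. At the other end, a few of the 100 genes dropped far down: 9 were below rank 1000 of their group in P at 12 h and 11 in Q at 12 h, and at 36 h there were 11 in P and 8 in Q.

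**Figure D2:**
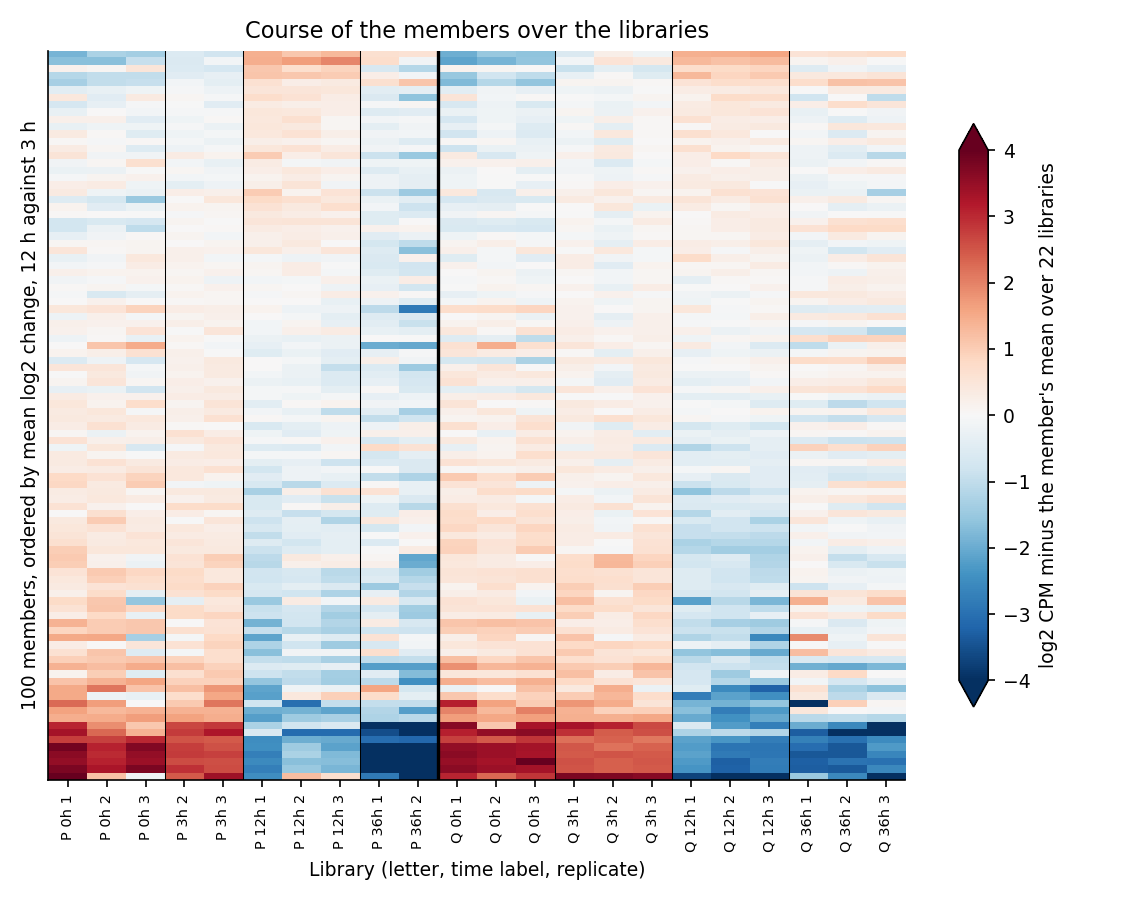
Level of each of the 100 genes (rows, members, ordered by their mean log2 change at 12 h against 3 h) in each library (columns), as log2 CPM minus the gene's mean over the 22 libraries, from blue (below) to red (above). The rows at the bottom turn to blue at 12 h in both letters, the rows at the top turn to red, and the middle rows change little.

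Over 3, 12 and 36 h the range of a single gene was under 2-fold for 52 of the 100 in P and 51 in Q. It was very large for a few, and such ranges over all genes are not given here. The ratio of the highest to the lowest group mean had a median of 1.97 in P and 1.97 in Q. It was under 1.5 for 24 genes in P and 34 in Q, and 10 or more for 9 genes in P and 10 in Q. Over all 4 times, the highest group mean was at 0 h for 40 genes, 3 h for 30, 12 h for 27 and 36 h for 3 in P. In Q it was at 0 h for 35 genes, 3 h for 18, 12 h for 24 and 36 h for 23. As the genes were picked for their levels at 0 h, their peaks at 0 h describe the choice as well as the leaf. The median coefficient of variation between libraries of one group was 7.87 to 18.5%.

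Between 3 and 12 h more of the 100 genes fell than rose, in P and in Q alike. In P, 12 were higher and 35 lower at 12 h than at 3 h (edgeR quasi-likelihood test, Benjamini-Hochberg adjusted p under 0.05 over all genes tested), whereas over all genes 27.9% were called, 12.8% higher and 15.1% lower. In Q, 10 were higher and 48 lower, whereas of all genes tested 34.8% were called, 16.3% higher and 18.5% lower. The share that was higher was therefore close to the background in P and below it in Q, and the share that was lower was more than double the background in both. Over the 100 genes the log2 change had a median of -0.38 in P and -0.45 in Q, against 0.00 in P and 0.00 in Q over all genes. Among the next 100 genes, 23 were higher and 31 lower in P, and 21 were higher and 38 lower in Q. A change of at least 2-fold was called for 4 genes upward and 22 downward in P, and for 3 upward and 35 downward in Q. At that fold, the next 100 genes gave 7 upward and 20 downward in P, and 7 upward and 22 downward in Q. The share of all genes at that fold is not given here.

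The letters moved alike over this interval, in which no library is shared between them. Of the 100 genes, 8 were called higher in both letters, 34 were called lower in both and 0 in opposite directions, while 5 were called in P alone and 16 in Q alone. The sign of the log2 change was the same for 95 genes. Across the 100 genes, which are not independent replicates, Pearson's r between the log2 change in P and in Q was 0.90 and Spearman's rho 0.93, as a description. The same joint counts and correlations over all genes are not given here, so the likeness is not shown to be particular to the 100. The test of the difference itself, the change in P minus the change in Q, called 0 of the 100 genes with edgeR (10 at an unadjusted p under 0.05, and 1 with DESeq2 at an adjusted p under 0.05), and it called 0.0138% of all genes.

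TRINITY_DN325_c0_g1, rank 26 at 0 h, gained the most reads of any of the 100. It had 2554, 2550.3 and 4261 CPM at 0 h, 5411 and 7495 CPM at 3 h, 22212, 25429 and 31340.2 CPM at 12 h, and 13222 and 7249 CPM at 36 h in P. In Q it had 1868, 2226 and 2709.7 CPM at 0 h, 7447, 11742 and 10479.8 CPM at 3 h, 19831, 18065 and 19494 CPM at 12 h, and 8755, 9213 and 7960.3 CPM at 36 h. Every library at 12 h lay above every library at any other time, in both letters. It was higher at 12 h than at 3 h by a log2 change of 2.10 (SE 0.30, adjusted p = 2.94e-05) in P and of 0.95 (SE 0.25, adjusted p = 0.00546) in Q. At 36 h it was lower than at 12 h by a log2 change of -1.56 (SE 0.29, adjusted p = 0.00041) in P and of -1.23 (SE 0.25, adjusted p = 0.00159) in Q. These calls held with any 1 library left out, and the P change between 3 and 12 h was not called different from that in Q (difference 1.14, adjusted p = 0.246). At 12 h this gene alone held 2.63% ± 0.463 of the counts in P and 1.91% ± 0.0937 in Q (SD, n = 3 each).

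TRINITY_DN434_c9_g1, the gene of rank 100, followed a like course from a much lower start. In P it had 750.8, 1120.2 and 1047.5 CPM at 0 h, 1865 and 1574 CPM at 3 h, 7260.1, 5710.1 and 6629 CPM at 12 h, and 4206 and 4046 CPM at 36 h. In Q it had 701, 953 and 890.1 CPM at 0 h, 1794, 3162 and 2381 CPM at 3 h, 7191, 7374 and 8061 CPM at 12 h, and 3954, 4164 and 4448 CPM at 36 h. The 4 times did not overlap in either letter. The log2 change at 12 h against 3 h was 1.99 (SE 0.22, adjusted p = 1.66e-06) in P and 1.63 (SE 0.19, adjusted p = 1.73e-06) in Q, and that at 36 h against 12 h was -0.86 (SE 0.21, adjusted p = 0.00348) in P and -0.93 (SE 0.18, adjusted p = 0.00125) in Q. Ranks 73 and 90, named after their values were seen, rose by a log2 change of 1.51 and 1.57 in P and of 1.30 and 1.43 in Q between 3 and 12 h.

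TRINITY_DN30863_c0_g1, rank 12, and TRINITY_DN365_c1_g1, rank 25, were the pair chosen for the steepest falls shared by the letters. TRINITY_DN30863_c0_g1 had 4850.5, 3601 and 4494 CPM at 0 h, 2550.5 and 2512 CPM at 3 h, 72.5, 134 and 129.6 CPM at 12 h, and 18.8 and 8.83 CPM at 36 h in P. In Q it had 4775, 4207 and 7162.5 CPM at 0 h, 2476, 2199.5 and 2347 CPM at 3 h, 87.3, 43.6 and 62.7 CPM at 12 h, and 43.8, 54.4 and 52.8 CPM at 36 h. A gene that had been among the highest in the leaf was thus at most 134 CPM by 12 h in any library of either letter. The log2 change at 12 h against 3 h was -4.43 (SE 0.35, adjusted p = 4.82e-08) in P and -5.18 (SE 0.35, adjusted p = 6.07e-09) in Q.

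TRINITY_DN365_c1_g1 had 3349, 2333 and 3290.4 CPM at 0 h, 1834 and 1482 CPM at 3 h, 36.4, 86.5 and 68.9 CPM at 12 h, and 8.997 and 5.002 CPM at 36 h in P. In Q it had 3004, 2608 and 2473 CPM at 0 h, 1403, 1285 and 1348 CPM at 3 h, 48.0, 26.2 and 35.5 CPM at 12 h, and 25.1, 23.6 and 40.8 CPM at 36 h. The log2 change at 12 h against 3 h was -4.62 (SE 0.35, adjusted p = 4.07e-08) in P and -5.20 (SE 0.35, adjusted p = 7.74e-09) in Q. The falls of both genes between 3 and 12 h were called with any 1 library left out. Over the 22 libraries, ranks 12 and 25 had an r of 0.997 between their log levels, given as a description. Ranks 25, 54 and 82 carry IDs with one assembler component number, and ranks 54 and 82 each had an r of 0.999 with rank 25, so reads could have been shared or split between them and they are not counted as separate findings.

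After these values were seen, 9 genes that fell steeply were put together: ranks 12, 19, 22, 25, 54, 64, 69, 82 and 86. In P they held 1.91, 1.56, 0.0950 and 0.0430% of the counts at 0, 3, 12 and 36 h, and in Q 2.25, 1.48, 0.0672 and 0.0911%. Their share at 36 h was lower than at 12 h in P with no overlap between libraries, and in Q the libraries of these times overlapped. Ranks 54 and 82 had the lowest level of any of the 100 genes, each at 2.24 CPM in P at 36 h replicate 2, which rests on 38 counts.

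**Figure D3:**
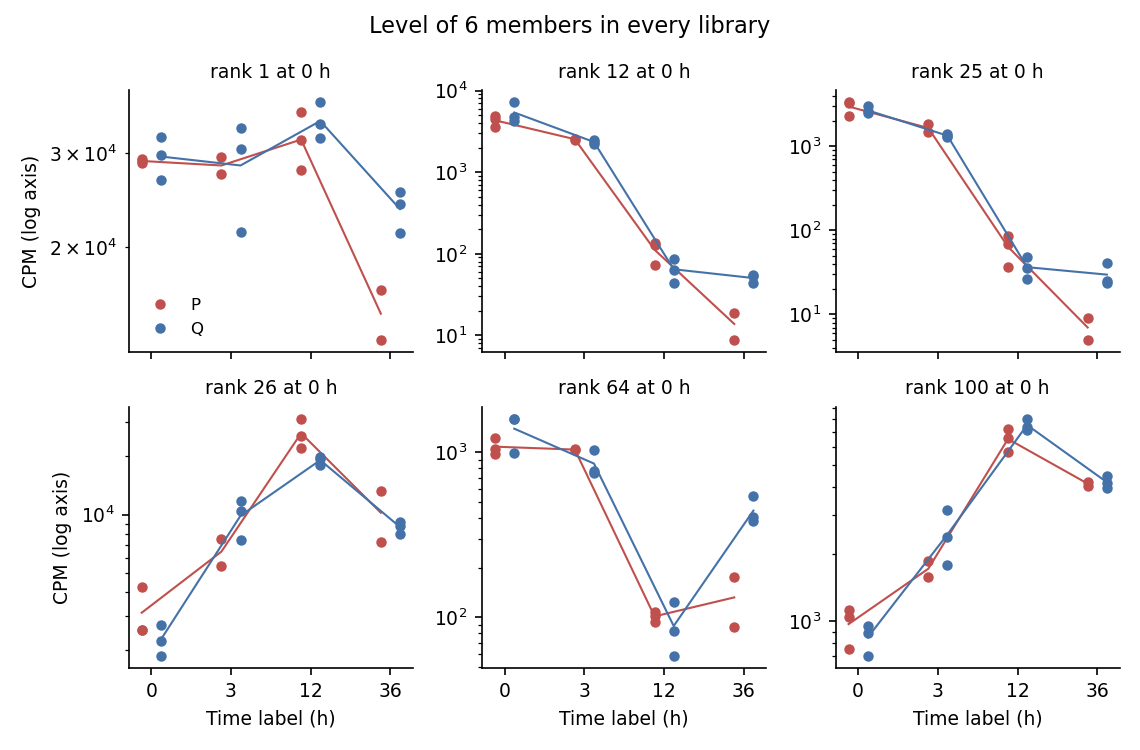
Levels (CPM, log y axis) of ranks 1, 12, 25, 26, 64 and 100 against time (0, 3, 12 and 36 h) in P and Q, with 1 point per library, lines through the group means and a y axis of its own for each gene. Ranks 12 and 25 fall below 140 CPM by 12 h in both letters, ranks 26 and 100 peak at 12 h, and rank 64 is higher in Q than in P at 36 h.

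Of the 10 highest genes, ranks 5 and 10 were called between 3 and 12 h in both letters and rank 4 in P alone. Rank 1 had 28757, 28969 and 29229 CPM at 0 h, 27382 and 29470.1 CPM at 3 h, 31739, 35752 and 27849.5 CPM at 12 h, and 16627 and 13435 CPM at 36 h in P. In Q it had 29706, 32175 and 26749.6 CPM at 0 h, 30556, 21348 and 33379.5 CPM at 3 h, 33926, 32055 and 37289 CPM at 12 h, and 21309, 25350.1 and 24043 CPM at 36 h. Both P libraries at 36 h lay below every other library. The log2 change at 12 h against 3 h was 0.23 (adjusted p = 0.439) in P and 0.27 (adjusted p = 0.27) in Q. At 36 h against 12 h it was -1.28 (SE 0.21, adjusted p = 0.000118) in P and -0.63 (SE 0.18, adjusted p = 0.0159) in Q, and the call in Q was lost without Q 36 h replicate 1 (adjusted p = 0.0619).

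Ranks 2, 3, 4 and 8 were likewise lower at 36 h than at 12 h. Rank 2 averaged 14710.5, 14052, 19252 and 13653 CPM at 0, 3, 12 and 36 h in P, and 11134, 14979.6, 19225 and 11811 CPM in Q. Rank 3 averaged 8099, 9407, 12316 and 3687 CPM in P, and 8393, 9655, 10928 and 5539 CPM in Q. The log2 change at 36 h against 12 h was -0.70 in P and -0.78 in Q for rank 2 (adjusted p = 0.0246 and 0.00862) and -1.93 in P and -1.06 in Q for rank 3 (adjusted p = 0.000365 and 0.0141). Rank 4 had changes of -0.71 in P and -0.52 in Q and rank 8 of -0.74 in P and -0.62 in Q at 36 h against 12 h, each with an adjusted p between 0.00994 and 0.0398. Of these 8 calls, those of rank 3 in P and rank 2 in Q held with any 1 library left out, and the others were lost without 1 or more single libraries. Ranks 2 and 8 belong to one assembler cluster, so reads could have been split between them. Rank 4 was higher at 12 h than at 3 h in P (log2 change 0.60, adjusted p = 0.03), a call that was lost without each of 3 single libraries.

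Ranks 5 and 10 fell between 3 and 12 h. Rank 5 had 5331, 7683 and 3610.1 CPM at 0 h, 7061 and 7943 CPM at 3 h, 2909.7, 2646 and 1961 CPM at 12 h, and 3664 and 2072 CPM at 36 h in P. In Q it had 5466, 5773 and 4306 CPM at 0 h, 8456, 5045 and 8129 CPM at 3 h, 2937, 2761 and 3634 CPM at 12 h, and 6634, 6566 and 7559 CPM at 36 h. The libraries at 12 h lay below those at 3 h in both letters, with a log2 change of -1.52 (SE 0.29, adjusted p = 0.000639) in P and of -1.22 (SE 0.27, adjusted p = 0.0015) in Q. At 36 h against 12 h the log2 change was 0.00 (SE 0.30, adjusted p = 0.998) in P, and it rose in Q by a log2 change of 1.07 (SE 0.27, adjusted p = 0.00703). The edgeR test of the difference between these 2 changes did not call rank 5 (-1.07, SE 0.40, adjusted p = 0.0831).

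Rank 10 averaged 4779.5, 3679.9, 1835 and 3823 CPM at 0, 3, 12 and 36 h in P and 4930.3, 3236, 1700.0 and 3187 CPM in Q. It was lower at 12 h than at 3 h in both letters (log2 change -0.93 in P and -0.94 in Q, adjusted p = 0.0147 and 0.00638) and higher at 36 h than at 12 h in both (0.86 in P and 0.82 in Q, adjusted p = 0.0205 and 0.0222). The fall in Q held with any 1 library left out, and the other 3 calls were each lost when certain single libraries were left out. Ranks 6 and 7 tracked each other, with an r of 0.985 and a ratio of 0.886 to 1.09 over the 22 libraries, and were not called between 3 and 12 h in either letter. Rank 6 averaged 5144, 5043, 3264 and 2152 CPM in P and 4852, 4654, 4239 and 4538 CPM in Q. Rank 9 averaged 4806, 5241, 6179 and 4142 CPM in P and 5021, 5029, 5850.2 and 5749 CPM in Q.

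Between 12 and 36 h, the interval that in P is the recovery from the cold, the changes in P and Q differed for more genes. In P, 4 of the 100 genes were higher and 50 lower at 36 h than at 12 h, whereas 33.3% of all genes were called, 17.5% higher and 15.8% lower. In Q, 29 were higher and 21 lower, whereas 23.9% of all genes were called, 12.5% higher and 11.4% lower. Over the 100 genes the log2 change had a median of -0.60 in P and 0.12 in Q, against 0.06 in P and 0.04 in Q over all genes. With libraries scaled by their totals alone, 69.9% of the calls over all genes in P were higher, against 52.5% with TMM, and 63.1% in Q, against 52.4%, and the 100 genes then split into 6 higher and 42 lower in P and 31 higher and 17 lower in Q. A change of at least 2-fold was called for 0 genes upward and 25 downward in P, and for 11 upward and 7 downward in Q. At that fold, the next 100 genes gave 4 upward and 24 downward in P, and 6 upward and 5 downward in Q. The share of all genes at that fold is not given here. Without a minimum fold, 8 of the next 100 genes were higher and 57 lower in P, and 23 were higher and 25 lower in Q.

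Set side by side, 4 genes were called higher and 20 lower in both letters, 0 in opposite directions, 30 in P alone and 26 in Q alone, and 70 had the same sign. Across the 100 genes r was 0.61 and rho 0.79. For this interval too, joint counts and correlations over all genes are not given. The test of the difference, the change in P minus the change in Q, called 28 genes, all of them more negative in P, whereas 14.2% of all genes were called, 7.77% with a more positive and 6.45% with a more negative change in P. Among the next 100 genes, 27 were called, 4 with a more positive and 23 with a more negative change in P, so the excess was not particular to the 100. With scaling by library totals the split over all genes moved to 70.2% positive, against 54.6% with TMM, and 11 of the 100 genes were called, all of them more negative in P. Without P 36 h replicate 2 the number called was 11, and it was also 11 without Q 12 h replicate 2 or without Q 12 h replicate 3, and 12 without P 12 h replicate 2. It was 13, 15, 16 and 18 without Q 36 h replicate 3, Q 36 h replicate 2, Q 12 h replicate 1 and Q 36 h replicate 1.

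**Figure D4:**
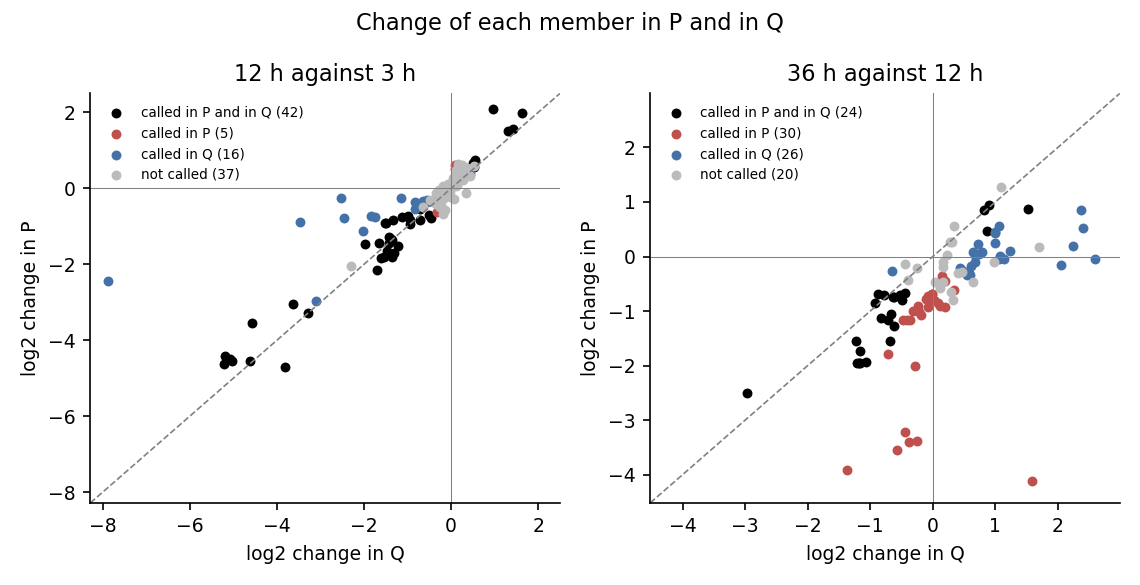
Log2 change of each of the 100 genes in P (y axis) against Q (x axis), for 12 h against 3 h (left) and 36 h against 12 h (right), with 1 point per gene. Colours show in which letters a gene was called. The points lie along the dashed diagonal of equal change in the left panel, with r of 0.90, and more of them sit below it in the right panel, with r of 0.61.

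Summed over the genes, changes in mean CPM at 12 h against 3 h came to 58591 CPM for the genes that were higher in P and to -69977 CPM for those that were lower. Rank 26 made 33.9% of that gain. In Q the sums were 42336 CPM, of which rank 26 made 21.8%, and -69069.5 CPM. At 36 h against 12 h they were 13894 CPM and -90913 CPM in P, and 43124 CPM and -55477 CPM in Q. Gains among the 100 genes thus offset a smaller part of the losses in P than in Q over that interval, a difference for which no test is given. The largest single loss was that of rank 1, at -16749 CPM in P and -10856 CPM in Q. The steps from 3 to 12 h and from 12 to 36 h share the 12 h libraries of a letter.

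**Figure D5:**
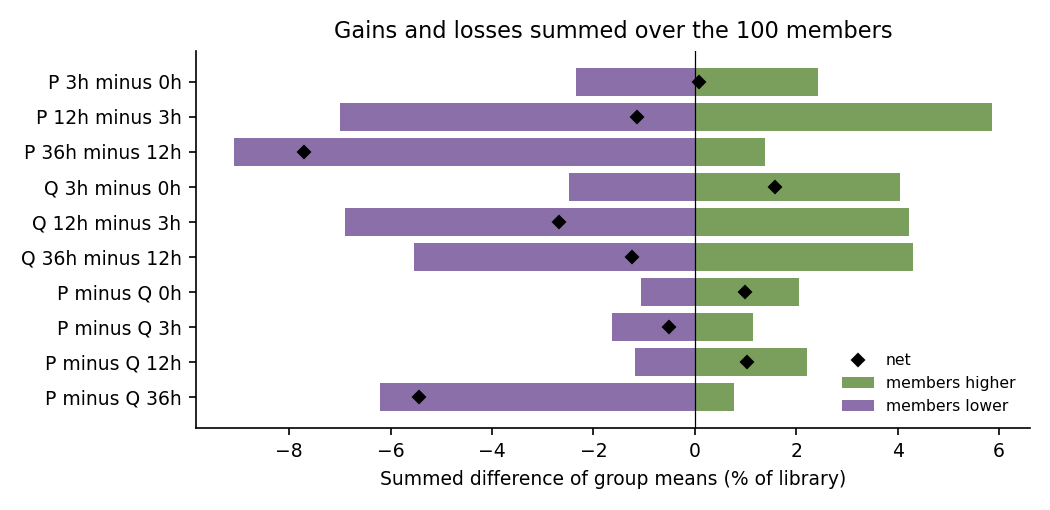
Sum of gains (green, right of 0) and of losses (purple, left of 0) in group means over the 100 genes (members), in percent of the library, with the net as a diamond, for each step between neighbouring times and for P minus Q at each time. The purple bar for P at 36 h against 12 h reaches farthest left, with the total share at 16.9% at 36 h and 24.6% at 12 h.

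Direct comparison of the letters at one time gave few differences until 36 h. At 3 h, 0 of the 100 genes were called with edgeR (4 at an unadjusted p under 0.05, and 0 with DESeq2), whereas 0.0138% of all genes were called, 0.00922% higher and 0.00461% lower in P. At 12 h, 4 were higher in P and 0 lower, whereas 3.57% of all genes were called, 2.26% higher and 1.31% lower. These were ranks 33, 69, 71 and 72, with log2 ratios of P to Q of 0.78, 0.65, 0.71 and 2.74 and adjusted p between 0.0273 and 0.0473, and each was lost when one of several single libraries was left out. The count was 14 without P 12 h replicate 1, 1 without Q 12 h replicate 3 and 0 without any other single library of the 2 groups. With scaling by library totals 40.4% of the calls over all genes were higher in P, against 63.3% with TMM. At 36 h, 0 were higher in P and 41 lower, whereas 13.7% of all genes were called, 8.72% higher and 4.94% lower, and the median log2 ratio was -0.53 over the 100 genes and -0.04 over all. Among the next 100 genes, 4 were higher and 33 lower.

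The count at 36 h rested in large part on P replicate 2. Without that library 5 of the 100 genes were called, and without P replicate 1 30 were. In both cases P at 36 h was left with 1 library, which was assumed to vary like the libraries of the other groups. Without Q replicate 3, 25 were called. The share of all genes called without each library is not given, so these drops are not shown to be particular to the 100. The libraries of P and Q did not overlap for 55 of the 100 genes at 36 h, 4 of them higher and 51 lower in P, whereas over all genes tested they did not overlap for 45.9%, 24.8% higher and 21.1% lower. At 12 h they did not overlap for 17 genes, 13 higher and 4 lower, whereas over all genes they did not for 21.5%, 8.48% higher and 13.0% lower. At 3 h they did not overlap for 18 genes, 11 higher and 7 lower, close to the 23.6% of all genes, 10.6% higher and 13.0% lower. The total count of P 36 h replicate 2 was within the range of the others, and the part of this library in the result was otherwise not tested.

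Of the 9 genes put together for their steep falls by 12 h, ranks 12, 25, 54, 64 and 82 were called lower in P than in Q at 36 h, and ranks 19, 22, 69 and 86 were not called. Rank 86 averaged 7.23 CPM in P and 7.40 CPM in Q at 36 h. TRINITY_DN365_c1_g1, at 8.997 and 5.002 CPM in P against 25.1, 23.6 and 40.8 CPM in Q, had a log2 ratio of -2.12 (SE 0.38, adjusted p = 0.00115), and its change from 12 to 36 h was -3.39 (SE 0.39, adjusted p = 5.75e-06) in P and -0.38 (SE 0.30, adjusted p = 0.4) in Q, a difference of -3.02 (SE 0.48, adjusted p = 0.000624). TRINITY_DN30863_c0_g1 had a log2 ratio of -1.90 (SE 0.36, adjusted p = 0.00187), which was lost without P replicate 2 (-1.41, adjusted p = 0.061). Its change from 12 to 36 h was -3.22 (SE 0.38, adjusted p = 6.4e-06) in P and -0.44 (SE 0.30, adjusted p = 0.305) in Q, a difference of -2.78 (SE 0.46, adjusted p = 0.000879). The 2 differences between the letters in the change from 12 to 36 h held with any 1 library left out. In both genes the levels at 12 h were already at most 134 CPM.

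Rank 64 took another path. In P it had 102, 108 and 93.4 CPM at 12 h and 176 and 87.5 CPM at 36 h, and in Q it had 124, 58.1 and 82.8 CPM at 12 h and 540, 405 and 385 CPM at 36 h. The P and Q libraries overlapped at 12 h and did not at 36 h. The log2 change was 0.19 (adjusted p = 0.672) in P, and in Q the gene rose by a log2 change of 2.24 (SE 0.28, adjusted p = 3.22e-05), a difference of -2.05 (SE 0.42, adjusted p = 0.00356) that held with any 1 library left out. Rank 18 had 2753 and 2614 CPM in P at 36 h, against 5068, 5253 and 5978 CPM in Q, a log2 ratio of -1.05 (SE 0.20, adjusted p = 0.00177) that was called with any 1 library left out.

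Among ranks 1 to 10 the letters differed at 36 h for ranks 1, 5, 6, 7 and 9. The log2 ratio of P to Q was -0.68 (adjusted p = 0.03) for rank 1, -1.30 (adjusted p = 0.0082) for rank 5, -1.11 (adjusted p = 0.0118) for rank 6, -1.07 (adjusted p = 0.0135) for rank 7 and -0.51 (adjusted p = 0.0466) for rank 9. All 5 calls were lost without P 36 h replicate 2, where rank 1 had an adjusted p of 0.327 and rank 5 of 0.187. For the difference in the change from 12 to 36 h, rank 9 was called (-0.67, SE 0.22, adjusted p = 0.0476) and rank 1 was not (-0.65, adjusted p = 0.116). Ranks 5, 6 and 7 were not called for it either (-1.07, -0.81 and -0.70, adjusted p = 0.0831, 0.152 and 0.218).

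Changes from 0 h were tested over genes chosen in the other letter, so that the libraries tested as the start did not choose the genes. The 100 genes highest in Q at 0 h share 97 with the 100 described here, and the 100 highest in P share 95. The 2 sets share 92 genes with each other, and both were chosen for high levels at 0 h. The split into higher and lower in either letter therefore describes the choice as well as the leaf, and no conclusion is drawn from it. Over the genes chosen in Q, 7 were higher and 1 lower in P at 3 h than at 0 h, where 5.26% of all genes were called, 3.77% higher and 1.49% lower. That count was 1 without P 3 h replicate 3, 2 without P 3 h replicate 2 and 5 without P 0 h replicate 3, and 1 when the compared libraries alone were fitted. At 12 h, 17 were higher and 38 lower in P, where 32.1% of all genes were called, 15.5% higher and 16.6% lower. At 36 h, 4 were higher and 64 lower in P, where 36.8% of all genes were called, 19.1% higher and 17.7% lower. Against 0 h these genes had a median of 0.04, -0.34 and -0.80 on the log2 scale at 3, 12 and 36 h in P.

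Over the genes chosen in P, 14 were higher and 3 lower in Q at 3 h than at 0 h, where 9.72% of all genes were called, 5.9% higher and 3.82% lower. At 12 h, 29 were higher and 41 lower in Q, where 37.8% of all genes were called, 17.9% higher and 19.9% lower. At 36 h, 19 were higher and 34 lower in Q, where 29.4% of all genes were called, 14.1% higher and 15.3% lower. The medians in Q were 0.15, -0.30 and -0.22. In P and in Q the 3 comparisons share their 0 h libraries and are given side by side only. Without P 36 h replicate 2, 42 of the genes chosen in Q were called in P at 36 h.

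The 100 genes formed 4950 pairs, of which 41 had an r over 0.95 between their levels over the 22 libraries and 1894 had an r below 0, with a median of 0.22. These values are descriptive, since the libraries share times and depth. The closest pair outside the falling group was ranks 17 and 83, with an r of 0.998 and a ratio of 3.53 to 4.11 in every library. Among the 100, 14 genes shared 6 assembler component numbers with another of the 100, including ranks 5, 46 and 95, and 28 shared a cluster with some other ID, whereas 29.5% of all IDs did.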

How the data were processed

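Raw counts per gene, 1 whole number for each of 54696 assembled genes in each of 22 libraries, were deposited by the authors with no normalization. The tools were FastQC (read quality), HISAT2 (alignment) and featureCounts (counting), per the submitters' processing notes. The reference for the alignment and the strand setting are not given in the sources used here. The table held 0 other value columns. P at 3 h replicate 1 and P at 36 h replicate 3 were not analysed here. RNA was extracted per plant, per the labels, and no label says more on how libraries relate to plants, so p-values cover the spread among libraries, which may be technical. Libraries of one group differed by more than sampling noise (chi-square per gene 14.6 to 46.0, near 1 for noise alone), so each was counted separately.

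CPM is the count divided by the library total, times 1e6, without other scaling. Shares are sums of CPM, with Wilson 95% intervals that cover counting error only. Tests used edgeR 4.0.16 in R 4.3.3: filterByExpr with a minimum count of 10 left 21694 genes (751 were 0 everywhere), libraries were scaled by TMM, and the robust quasi-likelihood test was run on contrasts of the 8 group means over all 22 libraries (common biological coefficient of variation 0.264), with Benjamini-Hochberg adjustment over all genes tested and a threshold of 0.05. SE is the log2 change divided by the square root of F. The code was tested on simulated data.

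The 100 genes and the lists were chosen with earlier results of these data known. Named IDs were, among genes called in one direction in both letters at 12 h against 3 h with no overlap between libraries, the 2 with the largest and the 2 with the smallest mean log2 change; ranks 1 to 10 and up to 5 genes per comparison of the letters, by adjusted p, were also described. Alternatives were DESeq2 1.42.0, RLE scaling, library totals alone, TMM without the 100 genes, no filter, a stricter filter (10 counts in 11 libraries), a minimum fold of 2, a replicate block, the compared libraries only, leaving out each library, and other ways to pick the 100 genes. Tables and figures were made in Python 3.11.15.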

Additional observations from a re-analysis of the deposited data

Results flagged for a closer look

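The change from 12 to 36 h differed between the letters, by the edgeR test of that difference, for 28 of the 100 genes, whereas 14.2% of all genes were called. The number was 11 without Q 12 h replicate 2 or without Q 12 h replicate 3, and 12 without P 12 h replicate 2. It also fell without P 36 h replicate 2, which left P at 36 h with 1 library. It was 11 with scaling by library totals and 14 with TMM computed without the 100 genes. Each of the 28 had a more negative change in P than in Q. Among the next 100 genes by the same ranking, 27 were called, 4 with a more positive and 23 with a more negative change in P. Genes with a called difference in log2 change (P minus Q) included TRINITY_DN30863_c0_g1, rank 12 (-2.78), and TRINITY_DN365_c1_g1, rank 25 (-3.02). They also included rank 54 (-3.13, adjusted p = 0.00108), rank 82 (-2.98, adjusted p = 0.00114), rank 64 (-2.05) and rank 9 (-0.67). Rank 52, which varied widely between libraries of one group, had -5.71 (adjusted p = 0.0474). Ranks 25, 54 and 82 carry one assembler component number. The difference for rank 9 was lost under most of the alternatives, whereas those for ranks 12, 25, 54, 64 and 82 were called with any 1 library left out. The part of P 36 h replicate 2 in the other differences was not tested beyond leaving it out.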

How the results depend on the processing

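Across 136 results for single genes and 2000 alternative values, 1846 stayed on their side of the threshold in the same direction, 131 lost a call, 23 gained one and 0 reversed. These include results that were not called at the outset, such as those of P against Q at 3 h, which had no call to lose. With a minimum of 2-fold, 26 and 38 genes were called at 12 h against 3 h in P and Q, 25 and 18 at 36 h against 12 h in P and Q, 1 and 13 between P and Q at 12 and 36 h, 10 for the difference of the change from 12 to 36 h, 2, 32 and 42 in P at 3, 12 and 36 h against 0 h, and 7, 38 and 31 in Q. The share of all genes at that fold is not given, so these counts are not set against a background. Same-numbered libraries had correlations of deviations of at most 0.099 in P and 0.063 in Q, and differently numbered ones of at most 0.14 and 0.114. In groups of 2 or 3 libraries the deviations from the group mean depend on each other, so this cannot settle whether replicate numbers pair the libraries. With the replicate block, 0 and 21 genes were called between P and Q at 12 and 36 h. Fitting the compared libraries only gave 0 and 14 there, and 1 in P at 3 h against 0 h. Library totals alone gave 2 between P and Q at 12 h and 11 for the difference of the later change, TMM without the 100 genes gave 2 and 14, and DESeq2 gave 14 and 47, with 1 for the difference of the earlier change and 26 in Q at 3 h against 0 h.

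Leaving out each library gave 32 to 46 and 51 to 56 genes called at 12 h against 3 h in P and Q, and 36 to 51 and 35 to 42 at 36 h against 12 h. Between P and Q it gave 0 to 0 at 3 h, 0 to 14 at 12 h and 5 to 41 at 36 h. The difference of the change gave 0 to 0 earlier and 11 to 28 later. Against 0 h it gave 1 to 7, 51 to 56 and 42 to 68 in P and 12 to 17, 62 to 66 and 44 to 53 in Q. Shares ran at 0, 3, 12 and 36 h from 25.01 to 26.8, 24.9 to 26.5, 24.1 to 25.1 and 15.4 to 18.4% in P, and 24.5 to 24.8, 25.9 to 26.8, 23.4 to 23.8 and 22.2 to 22.5% in Q. With the 10 highest genes taken out of the library total as well, ranks 11 to 100 held 18.4, 18.5, 16.7 and 11.8% in P and 17.8, 18.9, 15.3 and 15.9% in Q. With genes chosen in Q at 0 h, the share of all 100 genes was 22.6 and 21.7% in Q at 12 and 36 h. Groups of 2 or 3 libraries limit what these tests can show.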

Other observations

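Rank 52, singled out after its values were seen, varied widely between libraries of one group. In P it had 4000.5, 457 and 183 CPM at 0 h, 1126 and 2128 CPM at 3 h, 36.7, 484 and 326 CPM at 12 h, and 28.8 and 8.83 CPM at 36 h. In Q it had 1681, 1014 and 1497 CPM at 0 h, 2803, 2713 and 2536 CPM at 3 h, 15.9, 9.32 and 9.11 CPM at 12 h, and 73.0, 34.2 and 3.62 CPM at 36 h. The log2 change at 12 h against 3 h was -2.45 (SE 1.18, adjusted p = 0.143) in P and -7.88 (SE 1.44, adjusted p = 0.000589) in Q. The difference between these changes was not called (5.43, SE 1.77, adjusted p = 0.264). At 36 h against 12 h the log2 change was -4.12 (SE 1.44, adjusted p = 0.0391) in P and 1.59 (SE 1.13, adjusted p = 0.336) in Q. By the edgeR test, the difference between these later changes was called (-5.71, SE 1.80, adjusted p = 0.0474). Its highest level at 0 h was in P replicate 1.

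Ranks 24 and 30, likewise chosen after their values were seen, dipped at 12 h in Q. In P, rank 24 had 792, 2791 and 2047 CPM at 12 h, against 1707 and 2988 CPM at 3 h, and the libraries of these times overlapped. In Q it had 495, 1032 and 617 CPM at 12 h, against 5121, 3380.5 and 3770.2 CPM at 3 h, with no overlap, and 5951, 2829.8 and 4859 CPM at 36 h. Rank 30 averaged 1146 CPM in P and 481 CPM in Q at 12 h, against 2057 CPM in P and 2635 CPM in Q at 3 h. Its libraries at 12 h lay below those at 3 h in both letters. By the edgeR test, the P change between 3 and 12 h was not called different from that in Q for rank 24 (difference 2.28, adjusted p = 0.328) or rank 30 (1.69, adjusted p = 0.335). Neither gene was called between P and Q at 12 h (adjusted p = 0.166 and 0.104).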
